A study of Mus musculus with 6 samples.

Results

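The genes described here encode the proteins of the cytosolic ribosome. They were chosen by symbol alone (*Rpl* and *Rps* names with a number, *Rplp0* to *Rplp2* and *Rpsa*, without the *Rps6k* kinases and the entries marked as pseudogenes), which gave 84 of the 18051 genes measured. Of these, 32 carry small-subunit names and 52 carry large-subunit names, and 77 are the main genes whereas 7 are paralog copies (*Rpl3l*, *Rpl7l1*, *Rpl10l*, *Rpl22l1*, *Rpl32l*, *Rpl39l* and *Rps27l*). RNA-seq was performed on 6 mouse libraries, 3 of cells given a vector control (control) and 3 of cells with a lentivirus-borne Cas9 knockout of *S100a8* (knockout). *S100a8* encodes a calcium-binding protein of myeloid cells. The labels call the cells hematopoietic stem cells and name no compound, strain or age, whereas the study's text places its lentiviral *S100a8* knockout RNA-seq in mouse embryonic fibroblasts to which glycyrrhizic acid, a licorice compound, was added. Whether the compound was present in either group is therefore not known here, and neither is whether the knockout libraries derive from 1 clone or from a pool. Nothing in the labels ties the replicates to separate cultures. The p-values below therefore measure the spread of these libraries alone, and that spread may be technical.

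Values are FPKM (the fragments of a gene, scaled to its transcript length and to the mapped fragments of the library), with no read counts, so the depth of each library is unknown. Differences are knockout minus control on the log2(FPKM + 1) scale, tested with limma over the 11112 genes with a mean of at least 1 FPKM, and a gene was called at a Benjamini-Hochberg adjusted p under 0.05. The targeted gene was at 3.67, 1.61 and 3.95 FPKM in the controls and listed at 0 in the 3 knockout libraries. On the log2 scale, correlations among the 3 controls were 0.997 to 0.998, and that of knockout replicates 1 and 3 was 0.998, whereas knockout replicate 2 stood apart (0.986 and 0.990 with the other two). The counts of called genes, and most of the genes described, are therefore also given without knockout replicate 2. The defining markers of blood cells were absent: *Ptprc* and *Kit* were listed at 0 in all 6 libraries, and 4 leukocyte markers summed to 0.51 to 0.70 FPKM in control and 0.65 to 0.88 in knockout. The stem and progenitor markers, most of their level *Ly6a*, summed to 442 to 460 FPKM in control against 144 to 172 in knockout. The 10 fibroblast markers summed to 5140 to 5268 FPKM in control and 6282 to 7507 in knockout. Neither list moved as a whole. Of the fibroblast markers 7 were called higher and *Fbln2* lower (mean 113 against 32.1 FPKM), beside 23.6% and 26.7% of all tested genes. Of 5 tested stem and progenitor markers 3 were called lower, whereas *Procr* and *Runx1* did not pass with all 6 libraries. The sums move with the groups, and their part in the values below was not tested. In such bulk libraries, fewer cells of a type and less RNA per cell cannot be told apart.

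Each cytosolic ribosome is built from a small subunit, which decodes the message, and a large subunit, which joins the amino acids. Most of their proteins are needed in equal numbers, and free ribosomal proteins are quickly degraded. In mammals, the messages of these genes begin with a run of pyrimidines (the 5′ terminal oligopyrimidine, or TOP, motif), through which growth signalling by mTORC1 and the RNA-binding protein LARP1 sets their translation. Blood formation is sensitive to their dose: in humans, loss of 1 copy of any of several of these genes causes Diamond-Blackfan anemia, a failure of red cell production.

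The pyrimidine run was looked for in the sequence around annotated starts, because it is the feature that most of these genes share and that the choice by symbol did not use. RefSeq start-site sequences (GRCm38.p6, the build called mm10) were matched for 64 of the 84 genes, with 76 starts. An unbroken run of 8 or more C or T bases on the coding strand, from 30 bases before to 50 after the start, was found at 69.7% of these starts, compared with 29.0% of all 32851 starts and 26.2% of the 11487 starts of tested genes. The longest run had a median of 10 bases for the ribosomal protein genes and 6 for all starts. The lines below give, for the called genes described further on that had an entry, 30 bases holding the longest run of that window in capitals, and the most abundant member, *Rps26*, is added.
Rpl15 (chr14:18270967-18270996, minus strand): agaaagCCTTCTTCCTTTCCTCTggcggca
Rps24 (chr14:24490698-24490727, plus strand): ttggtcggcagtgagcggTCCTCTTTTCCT
Rps7 (chr12:28635908-28635937, minus strand): tccccaCCTCTTTTCTTCCgccacccggat
Rpl4 (chr9:64173407-64173436, plus strand): gcgtggCCTTCTCCTCTCCCCgtcatggtg
Rps26 (chr10:128626480-128626509, minus strand): gccggaTCCTCTTTCgagtcttggctccaa
Rps15a (chr7:118116139-118116168, minus strand): ggcccaCTCTCTTTCTgccatcttccctcg
Rps4x (chrX:102189342-102189371, minus strand): cgcgcagcctccgaccctaaTTTCTTCgtt
Rpl7l1 (chr17:46782657-46782686, minus strand): TCTCTaccccgcccggtgaggctgcgcaag
The run was 17 bases in *Rpl15*, 15 in *Rpl4*, 13 in *Rps7*, 10 in *Rps15a* and 9 in *Rps26*. In *Rps24* it was 12 bases up to the edge of the searched window of the first of its starts. The window of another of its starts shows this run going on, so its full length is more than 12 bases. The run was 7 bases in *Rps4x* and 5 in the paralog copy *Rpl7l1*, where it begins at the first base searched and may be longer. Runs of 8 or more bases thus stood in the called rises *Rpl15*, *Rps24*, *Rps7* and *Rpl4* and in the called fall *Rps15a*. In the searched window they were not found in the rise *Rpl7l1* or the fall *Rps4x*. Whether the run goes with the direction of change was not tested. A match is a description of these letters and not of a functional site.

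The ribosomal protein genes were among the most abundant transcripts of these cells, and their differences between the groups had a smaller spread than those of all tested genes. Of the 84 genes, 80 passed the filter on low values. *Rpl3l*, *Rpl10l*, *Rpl32l* and *Rpl39l* did not. The 77 main genes had a median level of 951 FPKM, compared with 13.2 FPKM over all tested genes, and 68 of them lay between 300 and 2000 FPKM. Ribosomal protein genes held 50 of the 100 highest mean levels in the table. In knockout compared with control, 7 genes rose, 2 fell and 71 did not pass the test. That is 11.25% of the 80, against 50.2% of all tested genes called in either direction (23.6% higher and 26.7% lower). This low share depended on knockout replicate 2: without it the shares were 52.5% and 66.5%, as described below. The fitted differences ran from −0.39 to 0.56, with an SD of 0.23 over the 80 genes, compared with 0.69 over all tested genes. The 304 other genes with a mean of at least 200 FPKM had an SD of 0.75, and 48.0% of them were called. The median difference was 0.09 for the ribosomal protein genes and −0.02 for all tested genes. An unadjusted p under 0.05 was found for 11 of the 80 genes. No share over all tested genes was computed at that cut-off, here or below.

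Knockout replicate 2 stood apart from the other libraries in these genes as well. Relative to the control mean, the median ribosomal protein gene stood at −0.10 on the log2 scale in knockout replicate 1, at 0.38 in replicate 2 and at −0.04 in replicate 3. The control replicates stood at −0.05, −0.004 and 0.06, and the median of all tested genes lay within 0.02 of 0 in every library. All 80 genes were higher in knockout replicate 2 than in both of its group mates, and its excess over the mean of the other two was 1.06-fold to 1.67-fold, with a median of 1.39-fold. The genes also moved together among the controls: 5 of 80 were above the control mean in control replicate 1, 37 in replicate 2 and 77 in replicate 3. In knockout replicates 1, 2 and 3, 23, 76 and 33 genes were above it. In 36 genes knockout replicates 1 and 3 both lay below all 3 controls, and in 15 both lay above them, compared with 39.6% and 37.4% of all tested genes. In 29 of the 36 genes replicate 2 lay above all 3 controls. For this count, for the excess in all 80 genes and for the counts above the control mean, no share over all tested genes was computed. These counts therefore do not set the ribosomal protein genes apart from other short transcripts, which are described below.

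**Figure D1:**
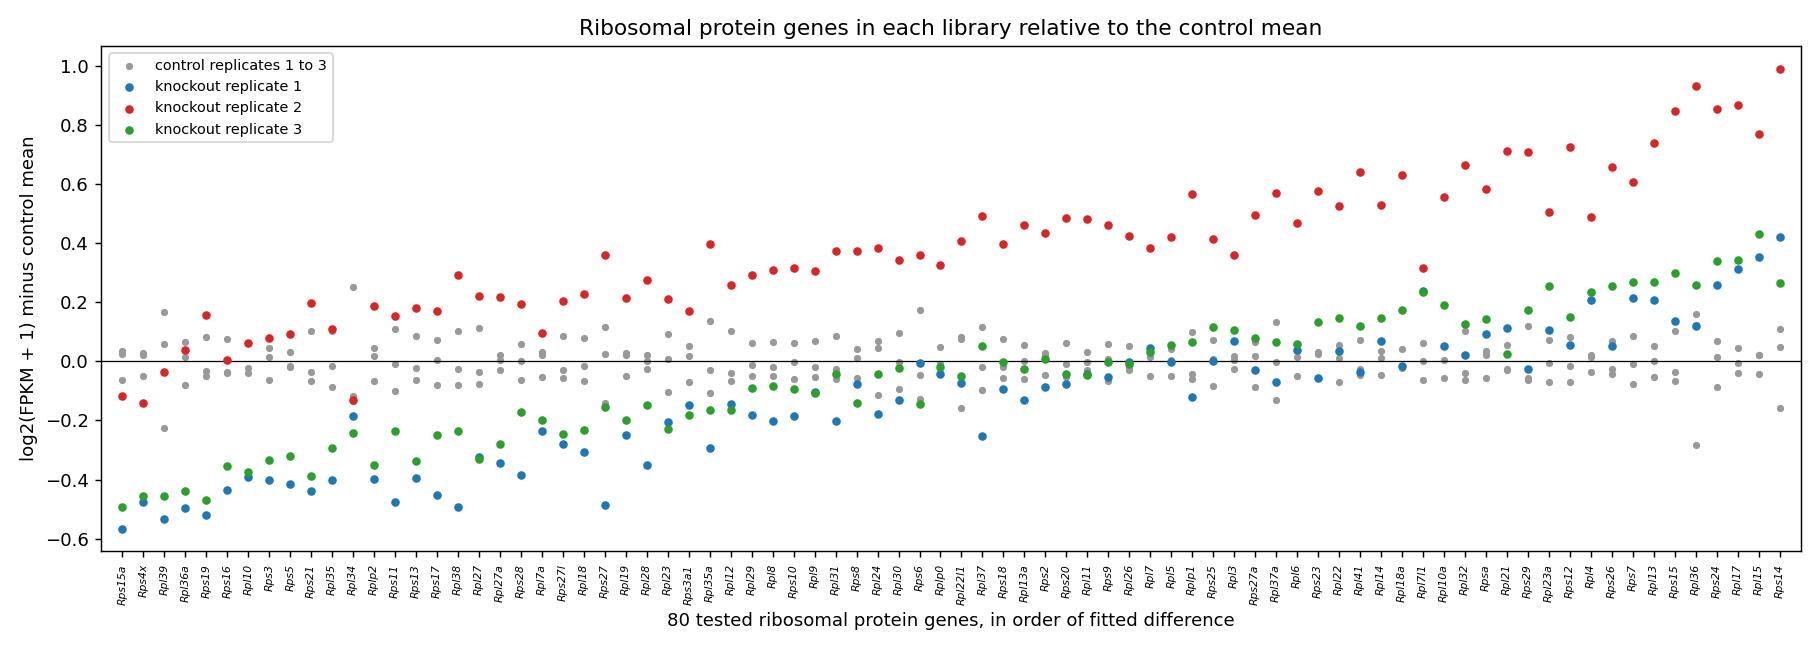
Each of the 80 tested ribosomal protein genes is a column, in order of its fitted difference, and each point is 1 library's log2(FPKM + 1) minus the mean of the 3 controls (grey, controls; blue, red and green, knockout replicates 1, 2 and 3). The red points lie above the blue and green points in every column, and the control points stay near 0 while the blue and green points run from below to above it.

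When knockout replicate 2 was left out, 10 of the ribosomal protein genes rose, 32 fell and 38 did not pass the test. This is 52.5% of the 80, against 66.5% of all tested genes in the same fit (31.6% higher and 34.9% lower). The 7 genes that rose and the 2 that fell with all 6 libraries were again called in the same direction, and the median difference became −0.08. The number of genes with a negative difference went from 30 to 51 of 80. When each library was instead adjusted for transcript length by a smooth curve over the tested genes with a length, 30 rose and 18 fell. That is 60.0% of the 80 against 61.6% of those genes (30.1% higher and 31.5% lower). With quantile normalization of all 6 libraries, 25 rose and 14 fell, against 53.4% of all tested genes (29.3% higher and 24.1% lower), so that falls made a larger part of the calls than with the values as deposited. Under each of these 3 settings the share of called ribosomal protein genes was nearer to that of all genes than with the deposited values of all 6 libraries.

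Knockout replicate 2 followed transcript length, and ribosomal protein messages are short, with a median of 772.5 bases compared with 2734 in the other tested genes. On the log2 scale, its deviation from the mean of replicates 1 and 3 fell with length, with a correlation of −0.69 over 10729 other genes and of −0.44 over the 80 ribosomal protein genes. These points share the same 3 libraries. Within each class of length the ribosomal protein genes had the higher median deviation, which was not tested. Below 600 bases the median deviation was 0.56 in 23 ribosomal protein genes and 0.42 in 133 other genes. From 600 to 1000 bases it was 0.47 in 39 and 0.34 in 655, and from 1000 to 2000 bases it was 0.42 in 14 and 0.19 in 2593. The 4 longest, with lengths of 2000 bases or more, also lay high. Their medians were 0.44 for 3 genes up to 4000 bases and 0.41 for *Rps15a* above that, where other genes were at −0.02 and −0.26. Their lengths were 5130 bases for *Rps15a*, 3706 for *Rps20*, 2048 for *Rpl22* and 2045 for *Rpl5*. All lengths are medians over annotated transcripts, and which transcripts were expressed is not known. The messages present may therefore be shorter, and these 4 genes do not show how long messages behave. The cause of this deviation was not tested.

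**Figure D2:**
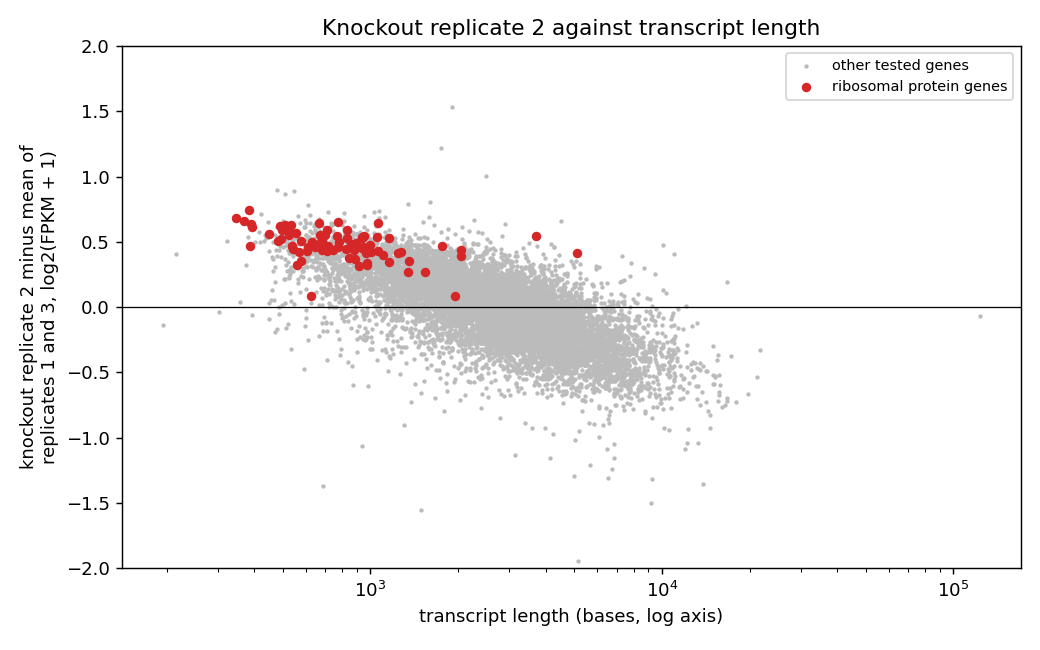
Each point is 1 tested gene with an annotated length, with the median transcript length in bases on a log axis and the deviation of knockout replicate 2 from the mean of knockout replicates 1 and 3 in log2(FPKM + 1). The red ribosomal protein genes lie at the short end and all above 0, mostly in the upper part of the grey cloud of other genes, and 1 gene lies outside the plotted range.

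As a share of all FPKM in a library, the 84 genes took 14.8%, 14.9% and 15.5% in the controls and 14.7%, 18.3% and 15.3% in the knockouts. Knockout replicate 2 was the highest library, and the other 5 lay close together. The means were 15.1% ± 0.383 in control and 16.1% ± 1.96 in knockout (SD, n = 3 each). The difference of 1.03 percentage points did not exceed the spread between replicates (exact permutation test, two-sided, p = 0.7, where 3 against 3 cannot give less than 0.1). Leaving out knockout replicate 2 gave a difference of −0.09 percentage points. For the shares, the length curve was fitted over all measured genes with a length, those under 1 FPKM included. It gave shares of 15.4%, 15.4% and 15.9% in control and 15.5%, 18.1% and 16.0% in knockout. This is not the curve over tested genes used for the counts above, for which no shares were computed.

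The called rises came from genes of both subunits. *Rpl15* (gene ID 66480, chr14:18267823-18270986), a large-subunit protein, was at 399, 417 and 418 FPKM in the controls and at 526, 703 and 555 FPKM in the knockouts. The groups did not overlap, and knockout replicate 2 was the highest library. The difference was 0.52 ± 0.115 (SE, limma adjusted p = 0.00661) and 0.39 without knockout replicate 2. *Rps24* (gene ID 20088, chr14:24490678-24496960), a small-subunit protein needed for processing of the 18S rRNA precursor, lies on the same chromosome. Its levels were 834, 896 and 930.5 FPKM in control and 1061, 1602 and 1121 FPKM in knockout. Again the groups did not overlap, and knockout replicates 1 and 3 lay close to each other. The difference was 0.48 ± 0.16 (limma adjusted p = 0.0359) and 0.30 without replicate 2.

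*Rps14* (gene ID 20044), on chromosome 18, is the small-subunit gene whose loss underlies the anemia of the human 5q− syndrome. It was at 754, 655 and 786 FPKM in control and at 976, 1450.4 and 878 FPKM in knockout, with the widest spread of the called genes in both groups. The groups did not overlap, and the difference was 0.56 ± 0.185 (limma adjusted p = 0.0365), or 0.34 without replicate 2. *Rpl17* (gene ID 319195), a large-subunit protein at the peptide exit tunnel, is the other ribosomal protein gene of chromosome 18. Its levels were 831.5, 852 and 881 FPKM in control and 1060.3, 1560.0 and 1085 FPKM in knockout. All 3 knockout libraries were above all controls, by 0.51 ± 0.153 (limma adjusted p = 0.0256) and by 0.33 without replicate 2.

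*Rps7* (gene ID 20115, chr12:28630847-28635953), a small-subunit protein that in human cells also binds MDM2, was at 768, 807 and 860.3 FPKM in control and 942, 1236 and 978 FPKM in knockout. The groups did not overlap, with a difference of 0.36 ± 0.122 (limma adjusted p = 0.0385) and of 0.24 without replicate 2. *Rpl4* (gene ID 67891, chr9:64173387-64178562), a large-subunit protein of the exit tunnel wall, was at 1212, 1256 and 1263 FPKM in control and 1435, 1746 and 1463 FPKM in knockout. The knockout libraries were all higher, and knockout replicates 1 and 3 were nearly equal. The difference was 0.31 ± 0.11 (limma adjusted p = 0.0465), or 0.22 without replicate 2.

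The seventh rise, *Rpl7l1* (gene ID 66229, chr17:46773907-46782656), is a paralog of *Rpl7* expressed far below it. It was at 49.6, 54.2 and 52.0 FPKM in control and at 61.4, 64.9 and 61.2 FPKM in knockout. Knockout replicate 2 hardly stood apart here, with a 1.06-fold excess over its group mates. The difference was 0.26 ± 0.0588 (limma adjusted p = 0.00698) and 0.24 without replicate 2.

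Both falls were in small-subunit genes. *Rps15a* (gene ID 267019, chr7:118104374-118116147) was at 81.8, 87.1 and 87.7 FPKM in control and at 57.4, 78.8 and 60.4 FPKM in knockout. Here knockout replicate 2 lay nearest to the controls, and the groups did not overlap. The difference was −0.39 ± 0.114 (limma adjusted p = 0.022), and −0.53 without replicate 2. *Rps4x* (gene ID 20102, chrX:102184941-102189391) is the X-linked gene of a small-subunit protein. It was at 1559.8, 1646 and 1636 FPKM in control and at 1159, 1465 and 1178 FPKM in knockout. Replicate 2 was again the highest knockout library and still below all controls. The difference was −0.36 ± 0.119 (limma adjusted p = 0.0379), and −0.47 without replicate 2. Over all 80 genes, 15 were non-overlapping with knockout higher and 2 with knockout lower, compared with 28.8% and 31.9% of all tested genes (60.7% in either direction).

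**Figure D3:**
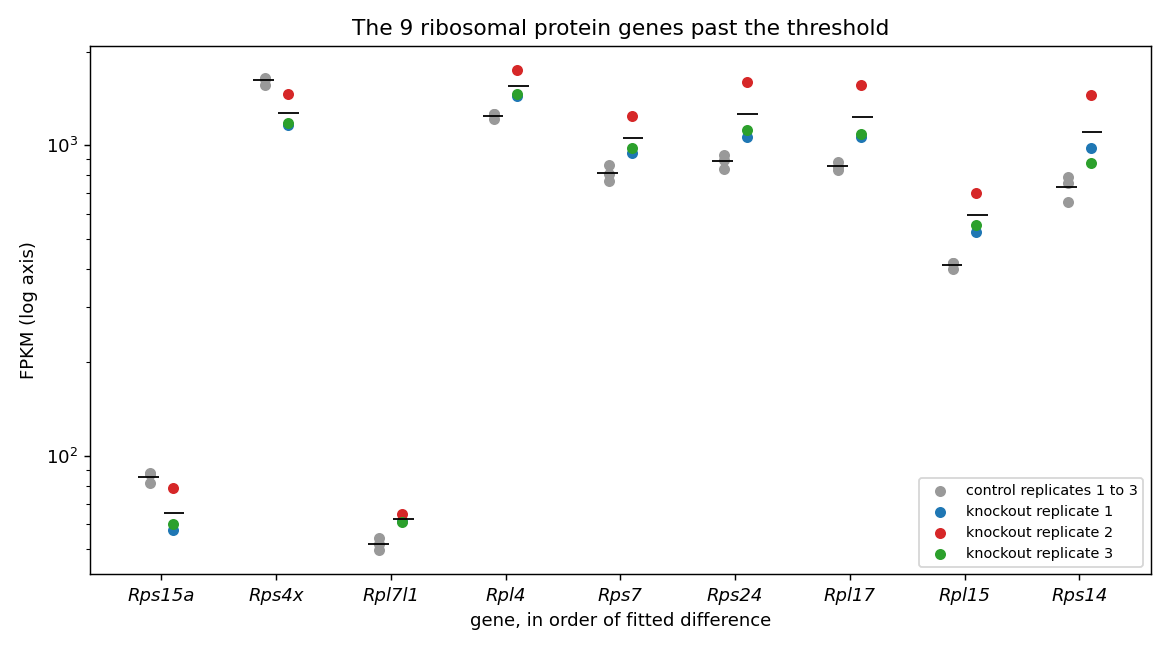
FPKM on a log axis of the 9 called ribosomal protein genes, with the controls to the left (grey) and the knockout replicates 1, 2 and 3 to the right (blue, red and green) of each gene and short lines at the group means. The groups are separate in all 9 genes, and the red point is the highest of the knockouts in each, which places it nearest to the controls in *Rps15a* and *Rps4x*.

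The direction of a ribosomal protein gene went with the chromosome that carries it. The 80 genes lie on 19 chromosomes, and over them the correlation between a gene's difference and the median difference of the other tested genes of its chromosome was 0.84, and 0.81 without knockout replicate 2. Genes of 1 chromosome share the same median, so these points are not independent. The SD of the 80 differences was 0.23 and became 0.13 after each chromosome was centred on the median of its other genes.

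On chromosome 14, *Rpl15* and *Rps24* had a median difference of 0.50, beside 0.41 in 366 other genes, and on chromosome 18 *Rpl17* and *Rps14* had 0.53 beside 0.37 in 289 other genes. On chromosome 12, *Rps7* and *Rps29* had 0.33 beside 0.19. These are the 3 chromosomes with the highest medians of other genes, and they carry 5 of the 7 called rises. At the other end, the 4 genes of the X chromosome (*Rpl10*, *Rpl36a*, *Rpl39* and *Rps4x*) had negative differences with a median of −0.32, beside −0.36 in 367 other genes. Chromosome 7 carries 14 ribosomal protein genes, the most of any, among them *Rps15a*. Of these 12 had a negative difference, with a median of −0.19 beside −0.25 in 789 other genes, and without knockout replicate 2 all 14 did. All 4 genes of chromosome 2 were negative, with −0.15 beside −0.20. Chromosomes 4 and 15 went the other way: their 5 and 4 genes all had positive differences, with medians of 0.12 and 0.08 beside −0.08 and −0.11 in the other genes. Without knockout replicate 2, 4 of 5 and 3 of 4 of those were negative.

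After centring by chromosome, *Rpl7l1* was the only one of the 80 genes that passed the test (0.28, limma adjusted p = 0.00547), against 41.2% of all genes tested with centring (20.2% higher and 21.0% lower). At an unadjusted p under 0.05, for which no share over all genes was computed, 6 of the 80 were higher and 0 lower by limma. When knockout replicate 2 was also left out, 9 rose and 18 fell, which is 33.75% of the 80 against 58.4%. The 4 rises on chromosomes 14 and 18 were then at −0.04 for *Rpl15*, −0.06 for *Rpl17*, −0.04 for *Rps14* and −0.13 for *Rps24*, and none of these passed the test. *Rps7*, on chromosome 12, was at 0.01 and did not pass either. *Rpl4* (0.15) and *Rpl7l1* (0.27) remained past the threshold as rises, and *Rps15a* (−0.27) and *Rps4x* (−0.14) as falls. This centring was chosen after the data had been seen. The cause of the likeness between genes of a chromosome was not tested.

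**Figure D4:**
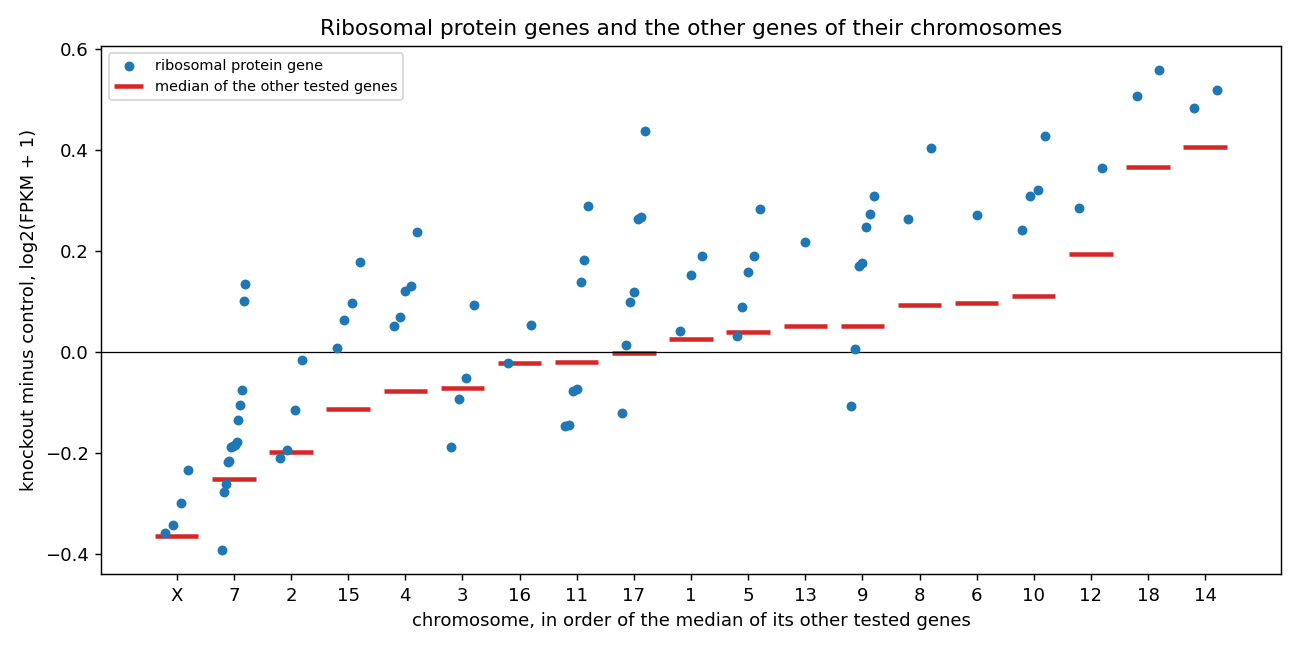
Differences of the 80 ribosomal protein genes (points, knockout minus control in log2(FPKM + 1)) by chromosome, in order of the median of the other tested genes of each (red bars). The points rise with the bars from the X chromosome, with a median of −0.32, to chromosomes 18 and 14, with medians of 0.53 and 0.50.

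Among parts of the ribosome with known roles, most genes did not pass the test. *Rpl5* and *Rpl11* bind the 5S rRNA, and this particle restrains MDM2 when ribosome assembly fails. *Rpl5* was at 775, 826 and 805 FPKM in control and 801, 1075 and 834 FPKM in knockout, and *Rpl11* was at 473, 481 and 492 FPKM and at 468, 674 and 467 FPKM. In both, knockout replicate 2 alone lay clearly above the controls. The differences were 0.16 (95% interval −0.13 to 0.44, limma adjusted p = 0.318) and 0.13 (limma adjusted p = 0.476), and without replicate 2 they were 0.03 and −0.04.

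The stalk of the large subunit, which recruits translation factors, is formed by *Rplp0*, *Rplp1* and *Rplp2*. *Rplp0* was at 1756, 1718 and 1828 FPKM in control and 1717, 2215 and 1744 FPKM in knockout, and its groups overlapped (0.09, limma adjusted p = 0.601). *Rplp1* was at 1789.8, 1769 and 1973 FPKM in control and 1695, 2727 and 1926 FPKM in knockout (0.17, limma adjusted p = 0.465). *Rplp2*, one of the chromosome 7 genes, was at 713, 755 and 770.0 FPKM in control and 566, 849.6 and 585 FPKM in knockout. Its knockout libraries lay on both sides of the controls, with a difference of −0.19 (limma adjusted p = 0.351) that became −0.37 without replicate 2 and then passed the test. For *Rplp0* and *Rplp1* the differences without replicate 2 were both −0.03 and did not pass.

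*Rpsa*, whose small-subunit protein is also known as the laminin receptor, was at 1077, 1148 and 1136 FPKM in control and 1194, 1679 and 1238 FPKM in knockout. The groups did not overlap, but the difference of 0.27 did not pass (limma adjusted p = 0.146), nor did that of 0.12 without replicate 2. *Rps26*, which lies at the messenger exit channel, was the most abundant member and the fifth most abundant gene of the table. It was at 2519, 2491 and 2693 FPKM in control and 2659, 4054 and 3061 FPKM in knockout (0.32, limma adjusted p = 0.155, and 0.15 without replicate 2). *Rps2*, *Rpl10*, *Rplp1*, *Rpl41* and *Rplp0* followed, with means of 2649.9, 2047, 1979.9, 1929 and 1829.6 FPKM. The order of the last 4 of these genes changed between libraries.

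*Rps6*, whose protein is the phosphorylated target of S6 kinase, had the lowest mean of the tested members. It was at 21.8, 27.0 and 23.0 FPKM in control and 23.7, 30.9 and 21.4 FPKM in knockout, and the groups overlapped (0.07, limma adjusted p = 0.699, and −0.08 without replicate 2). An entry outside the choice, the pseudogene *Rps6-ps4*, was at 1453, 1569 and 1582 FPKM in control and 1178, 1564 and 1198 FPKM in knockout, a level like that of the other ribosomal protein genes. *Rpl34* shows the same split: its own entry was at 28.3, 37.3 and 28.6 FPKM in control and 27.3, 28.4 and 26.2 FPKM in knockout, beside 916, 928 and 1014 FPKM and 788, 1109 and 819 FPKM for *Rpl34-ps1*. Ribosomal protein genes have many near-identical processed copies in the genome, between which reads can be divided. The values of *Rps6* and *Rpl34*, and to an unknown degree of other members, are therefore uncertain. The entry *Rpl37rt* had means of 331.5 FPKM in control and 282.9 in knockout (difference −0.24), beside 281.7 and 307.7 for *Rpl37* (0.10). *Rps27rt* had 244.6 and 228.6 FPKM (−0.09), beside 910.2 and 876.3 for *Rps27* (−0.09). The share of *Rps27l* given below leaves out *Rps27rt*. Summed over gene and pseudogene, *Rps6* was at 1475, 1596 and 1605 FPKM in control and 1202, 1595 and 1219 FPKM in knockout, with a difference of mean log2 values of −0.23, opposite in sign to the gene's own entry. For *Rpl34* the sum gave −0.09 and the gene's own entry −0.19.

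Of the paralog copies, *Rpl22l1* was at a level like that of its main gene, and the others lay below theirs. *Rpl22l1*, which is known to be held down by *Rpl22*, was at 117, 137 and 138 FPKM in control and 124, 173 and 126 FPKM in knockout, beside 107, 113 and 117 FPKM and 115, 162 and 124 FPKM for *Rpl22*. The copy therefore made 52.2%, 54.8% and 54.2% of the pair in control and 51.8%, 51.6% and 50.3% in knockout. The knockout shares were all below the control shares (53.7% ± 1.36 against 51.2% ± 0.814, SD, n = 3, exact permutation test, two-sided, p = 0.1), which is the smallest p that 3 against 3 can give. For *Rps27l*, a target of p53 in human cells, the share of the pair with *Rps27* overlapped between the groups, at 22.0%, 23.8% and 22.4% in control and 25.3%, 20.9% and 21.6% in knockout (exact permutation test, p = 1, n = 3). *Rpl7l1* made 4.75%, 4.95% and 4.70% of its pair with *Rpl7* in control and 5.46%, 4.61% and 5.50% in knockout, so that knockout replicate 2 lay below all controls and the other two above (exact permutation test, p = 0.4, n = 3). These were 3 of 6 pairs computed, and none of the 6 could pass 0.05 in this design.

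The copies typical of other tissues were at the floor of the table. *Rpl3l*, a heart and skeletal muscle form, was at 0.15, 0.10 and 0.04 FPKM in control and 0.12, 0.11 and 0.06 FPKM in knockout. *Rpl10l* and *Rpl39l*, forms of the male germ line, were listed at 0 or at most 0.05 and 0.09 FPKM. *Rpl32l* ranged from 0.45 to 1.38 FPKM. Their main genes *Rpl3*, *Rpl10* and *Rpl39* had differences of 0.18, −0.23 and −0.34, none of which passed the test with all 6 libraries (limma adjusted p = 0.186, 0.22 and 0.0988). Without knockout replicate 2, *Rpl10* (−0.38) and *Rpl39* (−0.49) were called lower, both on the X chromosome.

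Small-subunit and large-subunit genes had like levels, with medians of 944 and 910.2 FPKM. Against 50.2% of all tested genes called, of 32 small-subunit genes 3 rose and 2 fell, and the median difference was 0.06. Of 48 tested large-subunit genes 4 rose and 0 fell by limma (5 and 0 at an unadjusted p under 0.05), and the median difference was 0.10. Leaving out knockout replicate 2 gave 4 higher and 15 lower, and 6 higher and 17 lower, where 66.5% of all tested genes were called. The 17 members known as Diamond-Blackfan anemia genes in humans had 3 rises, *Rpl15*, *Rps24* and *Rps7*, and 0 falls by limma (3 and 0 at an unadjusted p under 0.05), with a median of 0.04, beside 23.6% and 26.7% of all tested genes. In the fit without knockout replicate 2, 3 were higher and 8 lower, beside 31.6% and 34.9%. Among the latter was *Rps19*, the gene most often affected in patients, which was named after its values were seen. It was at 687, 695 and 753 FPKM in control and 495, 792 and 514 FPKM in knockout, so that replicate 2 lay above all controls and the other two below. Its difference was −0.28 with all libraries (limma adjusted p = 0.22) and −0.49 without replicate 2.

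The genes that act with the ribosomal proteins were described from lists of their functions. Their counts stand beside 23.6% of all tested genes called higher and 26.7% lower with all 6 libraries, and 31.6% and 34.9% without knockout replicate 2. *Fau*, whose product is cut to give a small-subunit protein, and *Rack1*, a signalling scaffold of the small subunit, lie outside the naming. *Fau* was at 772, 784 and 814 FPKM in control and 591, 993 and 664 FPKM in knockout, and *Rack1* was at 909, 933 and 929 FPKM and at 985, 1245 and 1014 FPKM. Knockout replicate 2 was the highest library for both, and the groups overlapped in *Fau* but not in *Rack1*. The differences of −0.11 (limma adjusted p = 0.636) and 0.22 (limma adjusted p = 0.136) did not pass, and leaving out replicate 2 gave −0.33 and 0.11, which did (limma adjusted p = 0.000251 and 0.0438). Of 20 translation factors with TOP messages, 3 rose and 1 fell, with a median of 0.11, and 7 rose and 6 fell without replicate 2. *Npm1*, a nucleolar chaperone, was at 926, 1004 and 957 FPKM in control and 1161, 1227 and 1146 FPKM in knockout (0.29, limma adjusted p = 0.025). *Eef2*, the elongation factor that moves the ribosome along the message, rose by 0.28 (limma adjusted p = 0.0256). *Eif2s3x*, an X-linked subunit of the initiation factor that brings the first tRNA, fell by 0.31 (limma adjusted p = 0.0125). In *Npm1* the groups did not overlap, and knockout replicate 2 was the highest library by a small margin.

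Assembly factors build the subunits in the nucleolus and cytoplasm. Of 38 tested large-subunit assembly genes, 14 rose and 1 fell (median 0.15), and 16 rose and 2 fell without replicate 2. *Gnl3*, a nucleolar GTPase on chromosome 14, was at 34.5, 39.9 and 36.4 FPKM in control and 62.1, 66.3 and 62.3 FPKM in knockout, and rose by 0.77 (limma adjusted p = 5.22e-05). *Nop16* on chromosome 13 rose by 0.73 (limma adjusted p = 0.000202), and *Tex10* fell by 0.32. Of 33 small-subunit assembly genes, 11 rose and 3 fell (median 0.12; 16 and 4 without replicate 2), with *Ltv1* at 0.49, *Rrp9* at 0.46, *Imp3* at −0.28 and *Nol11* at −0.27. Of 16 genes of snoRNP particles and rRNA modification, 4 rose and 2 fell (median 0.12; 5 and 4 without replicate 2), with *Nop2*, an rRNA cytosine methyltransferase, at 0.55, *Nhp2* at 0.36, *Mettl5* at −0.38 and *Naf1* at −0.26.

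The RNA polymerase I machinery, which transcribes the rRNA precursor, had 3 rises and 2 falls in 19 tested genes (median 0.08), and 5 rises and 6 falls without replicate 2. *Twistnb* rose by 0.58 and *Taf1c* by 0.43, whereas *Ttf1* and *Polr1e* fell by 0.37 and 0.31. Of 20 chaperones and quality-control genes 9 rose and 2 fell (median 0.15; 12 and 3 without replicate 2), led by *Hbs1l*, a rescue factor for stalled ribosomes, at 0.56 and *Ccdc124* at 0.50, with falls of 0.43 in *Bccip* and 0.24 in *Nap1l4*. The 27 genes of growth control and TOP message regulation had 7 rises and 7 falls (median −0.03), and 10 and 9 without replicate 2. Among these, *Mxd4*, a MAX partner that opposes MYC, was at 16.1, 12.4 and 12.02 FPKM in control and 29.4, 24.9 and 29.6 FPKM in knockout, and rose by 1.002 (limma adjusted p = 0.000251). *Mxi1*, of the same family, fell by 0.90 (limma adjusted p = 0.000142), *Mycn* rose by 0.67 and *Mycl* fell by 0.54. The differences of *Mxd4*, *Mxi1* and *Mycn* were larger in size than that of any ribosomal protein gene, where the SD over all tested genes was 0.69. *Mycn* lay near the filter of 1 FPKM, at 1.80, 2.13 and 1.87 FPKM in control and 3.99, 3.67 and 3.39 FPKM in knockout.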

How the data were processed

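The authors extracted total RNA with TRIZOL, sequenced it on the DNBSEQ platform and filtered the reads. Alignment used mm10, with HISAT2 2.0.4 and Bowtie2 2.2.5 listed in the submitters' processing notes and RSEM in the study's methods. The gene annotation and the strandedness are not given in the sources used here. The deposited FPKM values, 1 column per library with 2 decimals, were normalized by the authors for length and depth. The authors' group averages were not used. Genes with a mean of at least 1 FPKM were tested on log2(FPKM + 1) with limma 3.58.1 in R 4.3.3, with a mean-variance trend and Benjamini-Hochberg adjustment over all tested genes. The script was tested on simulated data. Groups followed the treatment labels. Replicate numbers did not pair the samples (correlations of deviations 0.33, 0.10 and −0.21). Transcript lengths were medians over GENCODE M21 transcripts (97.3% of tested genes), and chromosomes came from RefSeq GRCm38.p6 by gene ID. The members and lists were chosen with earlier results of these data known. Fully described genes were the 6 largest called rises and falls, the 5S, stalk, *Rpsa*, *Rps6* and paralog genes, the highest and lowest members, and up to 2 rises and 2 falls of each companion list. Alternatives covered pseudocount, filter, scaling, trend, block, length, GC and left-out libraries.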

Additional observations from a re-analysis of the deposited data

How the results depend on the processing

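With all 6 libraries 7 ribosomal protein genes rose and 2 fell, out of 5580 called genes. Both counts were 7 and 2 with pseudocounts of 0.1 or 0.5 and with a minimum of 5 FPKM. They were 8 and 2 with median-of-ratios scaling, without the mean-variance trend and with the replicate number as a block. In that block the samples share only a number. In these fits, in the order given, 5545, 5565, 4204, 5567, 5531 and 5527 of all genes were called. The filter, length and centring settings also change how many genes were tested. The counts of ribosomal protein genes were 2 and 1 without a filter (6520 of all genes called) and 16 and 6 with TPM scaling (5059 called). They were 25 and 14 with quantile normalization (53.4% of all genes called). The length adjustment gave 30 and 18 without the replicate block (6663 called) and with it (6643 called). Adjusting for length and GC gave 32 and 20 (6945 called), and centring by chromosome gave 1 and 0 (41.2% called). Without knockout replicate 2 and with centring they were 9 and 18 (58.4% called). Leaving out 1 library gave 2 to 11 rises, 0 to 32 falls, a median difference of −0.08 to 0.17, a share difference of −0.09 to 1.74 percentage points and 4283 to 7391 called genes. Without control replicate 1, 2 or 3 there were 2 rises and 0 falls each (4319, 4283 and 4293 of all genes called). Without knockout replicate 1 there were 11 and 0 (5449 called), without replicate 2 10 and 32 (7391 called), and without replicate 3 4 and 0 (4642 called). In those 5 fits with 0 falls, limma gave 1 to 3 falls at an unadjusted p under 0.05. Of 500 values of 25 named genes under these settings, 383 kept direction and side of the threshold, 51 newly passed it, 47 no longer passed it and 19 changed sign, none of which passed it after the change. Over the fits that left out 1 library, the differences ranged from −0.0438 to 0.2206 for *Rpl11*, −0.0621 to 0.1783 for *Rpl22l1*, −0.0299 to 0.1537 for *Rplp0*, −0.0275 to 0.3151 for *Rplp1* and −0.0754 to 0.1775 for *Rps6*, each negative without knockout replicate 2 alone, and from −0.3199 to 0.103 for *Rps27*, which was positive without knockout replicate 1. With centring they were *Rpl10* (0.1142), *Rpl39* (0.0063) and *Rplp2* (0.0554). Without knockout replicate 2 and with centring they were *Rpl15* (−0.0373), *Rpl17* (−0.0571), *Rps14* (−0.042), *Rps24* (−0.1295), *Rpl22l1* (−0.0004), *Rpl5* (−0.0346), *Rpl7* (−0.0201), *Rplp0* (−0.092) and *Rplp1* (−0.0955). Quantile normalization gave −0.0029 for *Rplp0*. The cause of these changes was not tested, except that centring subtracts each chromosome's own median. The planned share without mitochondrially encoded genes was not run, since the table used lists no such gene. With no read counts, depth sets no limit that could be stated.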
